A study of Mus musculus with 20 samples.

Results

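The genes described here encode 10 proteins of the desmosome and its plaque, namely desmoplakin (Dsp), plakoglobin (Jup), the plakophilins Pkp1, Pkp2, Pkp3 and Pkp4, the cadherins desmocollin 2 (Dsc2) and desmoglein 2 (Dsg2), and the plakins periplakin (Ppl) and envoplakin (Evpl). They were chosen by name and found by matching the NCBI Gene numbers of the deposited tables to mouse symbols, as 10 of 19311 genes in 1 set of libraries and 10 of 24454 in the other. RNA sequencing of total RNA measured their levels in mouse mammary tumour cells, 20 libraries in 10 groups of 2, and the label of the extraction says that the RNA came from 2 independent experiments. Nothing says that replicates were separate cultures beyond that, so p-values measure the spread between these libraries.

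Desmosomes are the spot-like junctions that fasten epithelial cells to each other. Desmogleins and desmocollins reach across the gap between cells, plakoglobin and the plakophilins bind their tails inside the cell, and desmoplakin ties this plaque to keratin filaments. Periplakin and envoplakin are plakins best known from the cornified envelope of stratified epithelia, where they join desmosomes to filaments. In mammary epithelium desmosomes hold luminal and basal cells together, and their loss is a textbook feature of the epithelial-mesenchymal transition.

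All groups came from Py2T, a cell line of an MMTV-PyMT mouse mammary tumour, in which the mouse mammary tumour virus promoter drives the polyoma middle T antigen. Py2T LT cells were Py2T cells kept in 2 ng/ml TGFb1 for over 10 days. The stable mesenchymal cells M1, M2 and M3 were each a single clone. The labels name TGFb1 for Py2T cells and do not say whether the clones received it. The other 6 groups were M3 cells with a control shRNA (shControl), an shRNA against Tet2 (shTet2) or an shRNA against Mbd3 (shMbd3), each without CI994 or with 2 µM CI994 for 72 hours. Tet2 oxidises 5-methylcytosine, Mbd3 is a subunit of the NuRD deacetylase complex, and CI994 inhibits class I histone deacetylases. The question, going by the series title, is what deacetylases, Mbd3 and Tet2 do in switching between the epithelial and the mesenchymal state. Libraries of Py2T cells without TGFb1 were not analysed here.

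The 8 Py2T LT and clone libraries hold RPKM, reads scaled to transcript length and library size, whose depth is unknown, and the 12 shRNA libraries hold CPM, reads scaled to library size alone, from 16086082 to 24977595 reads. Levels of different genes are compared below only in RPKM, and no level is compared between the sets. As a check of the knockdowns, Tet2 measured 8.41 and 7.97 CPM with its own shRNA, below the 15.2 and 13.9 CPM of the untreated control pair. With CI994 the Tet2 gap was smaller, at 6.30 and 7.42 CPM against 8.13 and 11.4 CPM. Mbd3 was at 22.1 and 27.7 CPM in the shMbd3 libraries and at 66.5 CPM in shControl replicate 2, but the library labelled shControl replicate 1 held only 5.40 CPM, so it goes against its label for that gene. With CI994 Mbd3 was at 16.6 and 21.9 CPM with its shRNA and at 53.6 and 67.7 CPM in the control pair. Of 8 mesenchymal markers, 3 were called higher and 5 lower in each clone than in Py2T LT. Of all tested genes, 28.1% to 30.5% were higher and 29.4% to 30.5% lower. Col1a1 and Col1a2 reached the minimum of 1 RPKM for testing only in Py2T LT. Without them 3 of 6 markers were higher and 3 lower in each clone. The summed level of all 8 was 3974 to 4206 RPKM in Py2T LT and 4857 to 6555 RPKM in the clones. Vim, 1 of the 5 called lower, was at 1388 RPKM on average in Py2T LT and at 371 to 542 RPKM in the clones. Of 5 tested mammary luminal markers, 4 were called higher in M1, 3 in M2 and 3 in M3, and 0 lower, beside the shares of all genes above. Cdh1, which encodes E-cadherin, was at 1.94 RPKM in Py2T LT and 1.08 to 5.14 RPKM in the clones. Summed markers of blood cells reached at most 2.99 RPKM in all 8 libraries. The 5 endothelial markers summed to 0.965 to 1.44 RPKM in Py2T LT, where 1 of them reached the minimum of 1 RPKM. In the clones they summed to 0.053 to 0.198 RPKM, and none reached it. Of these 5, Emcn was at 0 in all 20 libraries.

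The library labelled M3 shControl replicate 1 stood apart from its partner along gene GC content. From the tenth of tested genes with the lowest GC content to the tenth with the highest, the median log2 gap of replicate 1 to replicate 2 fell by 1.77 in this pair, while the other 5 pairs of the set gave values from -0.39 to 0.01. The members of highest GC content were low in this library, where Jup (58.8% GC) was lower than in replicate 2 by a log2 gap of -2.03, Pkp3 (60.3% GC) by -1.87 and Evpl (61.2% GC) by -2.07. Dsp (51.8% GC) differed by only -0.26 between the same libraries, Pkp4 by -0.05 and Dsg2, the tested member of lowest GC content at 47.5%, by 0.45. This library also widens the spread that all comparisons of the shRNA set share, so their counts are given with and without it, the latter chosen with this pattern known.

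**Figure D1:**
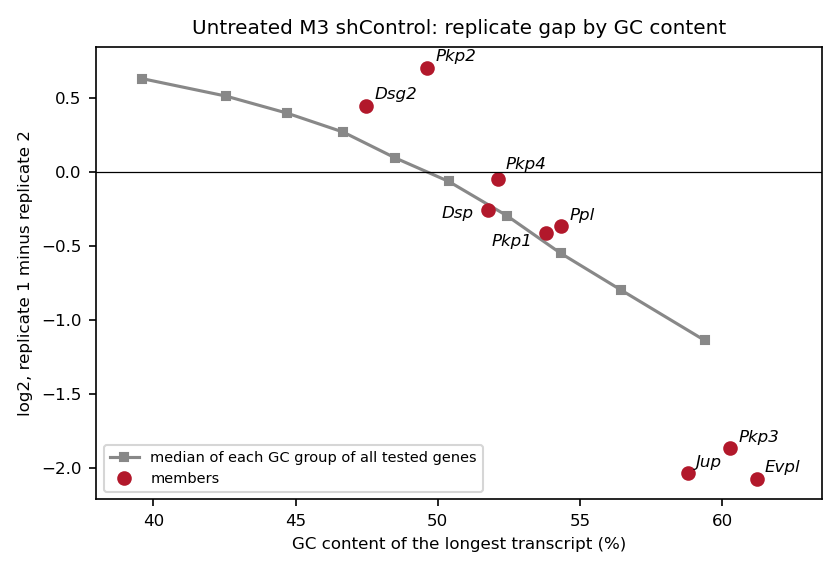
The x axis is the GC content of each gene's longest transcript in percent and the y axis the log2 level of untreated M3 shControl replicate 1 minus that of replicate 2. Squares are medians of equal-sized GC groups of all tested genes, from 0.63 to -1.14, and circles are the 9 tested members, of which Jup, Pkp3 and Evpl lie near -2.

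The RefSeq promoter table used here, on GRCm38.p6, holds starts of 3 of the 10 members, Dsp, Jup and Pkp4. The 250 bases before 3 of these starts are shown because Tet2 acts on methylated cytosine next to guanine, and each CG is in capitals; the strand is that of the gene, 5′ to 3′. The Dsp stretch is chr13:38151044-38151293 on the plus strand, the Jup stretch chr11:100397791-100398040 on the minus strand and the stretch before the second Pkp4 start chr2:59161619-59161868 on the plus strand. The Pkp4 stretch and part of the Jup stretch lie inside the gene spans given below.
Dsp: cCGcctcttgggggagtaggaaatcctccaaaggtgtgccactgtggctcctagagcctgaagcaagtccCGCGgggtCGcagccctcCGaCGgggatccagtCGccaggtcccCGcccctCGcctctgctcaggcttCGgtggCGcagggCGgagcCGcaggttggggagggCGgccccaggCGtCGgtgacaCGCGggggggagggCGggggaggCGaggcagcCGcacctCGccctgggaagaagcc
Jup: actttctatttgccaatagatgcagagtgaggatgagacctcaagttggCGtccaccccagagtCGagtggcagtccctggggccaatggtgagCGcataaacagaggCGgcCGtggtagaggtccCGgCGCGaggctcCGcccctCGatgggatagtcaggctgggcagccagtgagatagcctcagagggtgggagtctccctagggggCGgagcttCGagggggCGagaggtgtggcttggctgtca
Pkp4: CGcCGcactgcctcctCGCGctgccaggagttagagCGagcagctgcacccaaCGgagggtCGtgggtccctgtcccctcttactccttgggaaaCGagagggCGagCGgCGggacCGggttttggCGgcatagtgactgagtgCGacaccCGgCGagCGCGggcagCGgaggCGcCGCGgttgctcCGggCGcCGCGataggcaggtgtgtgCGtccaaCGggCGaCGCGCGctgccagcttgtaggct
The Dsp stretch holds 22 CG, the Jup stretch 13 and the Pkp4 stretch 32, against a median of 6 over the same 250 bases of all 32851 promoters in the table. The stretch before the first Pkp4 start, which is not shown, holds 21. The E-box CAGGTG, searched on both strands (CACCTG on the other), is a sequence that repressors such as Zeb1 and Snai1 are known to bind, and 17.2% of all promoters held it in this window. Of the 4 starts of the 3 members only the second Pkp4 start matched, with CAGGTG beginning 47 bases before the start. No methylation or binding was measured in these libraries.

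Between Py2T LT cells and the clones the plaque genes went in both directions and the desmosomal cadherins were low throughout. Dsp, Pkp1, Pkp3, Ppl and Evpl were higher in each of the 3 clones, Jup and Pkp2 were lower, and Dsc2 was nearly absent from all clones. Each comparison used the same 2 Py2T LT libraries. In M1, 5 of the 8 tested members rose and 2 fell, where 30.5% of all 11717 tested genes rose and 30.5% fell. In M2 the counts were 5 and 2, against 28.1% and 29.4% of all tested genes, and in M3 5 and 3, against 29.2% and 30.4%. The median log2 difference over the tested members was 0.84 in M1, 1.39 in M2 and 1.36 in M3, beside medians of all tested genes of -0.01, -0.01 and -0.02. Dsc2 and Dsg2 missed the minimum of 1 RPKM in 2 libraries and were not tested, and Evpl passed it only through the clones, where it is high. Without Evpl, 4 of 7 members rose in each clone and the medians were 0.66, 1.26 and 1.18.

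Dsp (chromosome 13, 38151294 to 38198577), the link to keratin, was at 3.20 and 2.97 RPKM in the Py2T LT libraries, 6.37 and 7.57 in M1, 12.6 and 10.4 in M2 and 11.5 and 12.3 in M3. Every clone library lay above both Py2T LT libraries, and the M1 libraries lay below those of M2 and M3. On the log2 scale of scaled RPKM + 0.5, the difference to Py2T LT was 1.02 (SE 0.141) in M1, 1.71 in M2 and 1.77 in M3, with adjusted p of 0.000311, 1.39e-05 and 1.08e-05 by limma.

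Ppl (chromosome 16, 5086291 to 5132481) showed the widest gap among the tested members. It was at 1.57 and 1.54 RPKM in Py2T LT, 14.7 and 21.8 in M1, 27.6 and 25.4 in M2 and 21.8 and 27.6 in M3, so that the mean of M2 was 17.1 times that of Py2T LT. Its log2 difference was 3.13 in M1, 3.70 in M2 and 3.59 in M3 (SE 0.191), with adjusted p between 7.60e-07 and 2.17e-06. Evpl (chromosome 11, 116220559 to 116238165), the partner of Ppl in the cornified envelope, was at 0.209 and 0.201 RPKM in Py2T LT and between 1.13 and 1.67 RPKM in the 6 clone libraries. Its log2 difference was 1.20 in M1, 1.53 in M2 and 1.54 in M3, with adjusted p of 0.000203, 6.63e-05 and 6.34e-05 when all genes were tested without the minimum, and with a pseudocount of 0.1 the differences became 2.00, 2.41 and 2.43.

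The plakophilins split. Pkp3 (chromosome 7, 141078229 to 141090511), an armadillo protein of the plaque, was at 7.55 and 7.39 RPKM in Py2T LT, 23.1 and 21.8 in M1, 19.2 and 18.6 in M2 and 22.8 and 26.6 in M3. All clone libraries were above both of Py2T LT, with log2 differences of 1.48, 1.26 and 1.63 (SE 0.104). Pkp1 (chromosome 1, 135871394 to 135919207), known chiefly from stratified epithelium, was at 19.6 and 15.1 RPKM in Py2T LT, 26.4 and 30.2 in M1, 68.4 and 59.9 in M2 and 39.0 and 41.4 in M3. M2 stood above the other clones, and the log2 differences to Py2T LT were 0.66, 1.84 and 1.18 (SE 0.142). Pkp2 (chromosome 16, 16213345 to 16272712), the plakophilin of simple epithelium and heart, was at 24.2 and 26.7 RPKM in Py2T LT against 14.6 and 10.7 in M1, 15.0 and 13.5 in M2 and 10.6 and 10.3 in M3. It lay lower in all 6 clone libraries, with log2 differences of -1.04, -0.84 and -1.26 and adjusted p of 0.000291, 0.00102 and 8.86e-05. Pkp4 (chromosome 2, 59160850 to 59355205), which is found at adherens junctions as well, moved least, at 28.9 and 32.5 RPKM in Py2T LT and 22.8 to 30.9 RPKM in the clones. Only its fall in M3 passed, at -0.38 with an adjusted p of 0.0281, and that call was lost without Py2T LT replicate 2, M2 replicate 1, M3 replicate 1 or M3 replicate 2.

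Jup (chromosome 11, 100368856 to 100397839), which serves both desmosomes and adherens junctions, had the highest level of the members in Py2T LT, at 78.6 and 61.0 RPKM. It was at 46.6 and 45.0 RPKM in M1, 33.5 and 29.6 in M2 and 35.1 and 42.4 in M3, below Py2T LT in all 6 clone libraries. The log2 differences were -0.64, -1.15 and -0.86 (SE 0.142), with adjusted p of 0.00448, 0.000173 and 0.000906. The order of the members by level thus differed between groups: in Py2T LT it ran from Jup (mean 69.8 RPKM) through Pkp4 (30.7) and Pkp2 (25.5) to Pkp1 (17.3), and in M2 from Pkp1 (64.2) through Jup (31.6) and Pkp4 (30.2) to Ppl (26.5).

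The desmosomal cadherins had the lowest levels of the members in the clones, and in Py2T LT only Evpl lay below them. Dsc2 (chromosome 18, 20030633 to 20059554) was at 0.896 and 0.784 RPKM in Py2T LT, was listed at 0 in both M1 libraries and M2 replicate 1, and reached at most 0.0137 RPKM in the other 3 clone libraries. Dsg2 (chromosome 18, 20558074 to 20604526) was at 0.944 and 0.761 RPKM in Py2T LT, 0 and 0.0117 in M1, 0.634 and 0.349 in M2 and 0.00959 and 0.00971 in M3. M2 thus held Dsg2 RNA where M1 and M3 held next to none, while Dsc2 was missing from M2 as well. Dsp, their anchor to keratin, had a mean of at least 3.08 RPKM in every group, against at most 0.853 RPKM for either cadherin. In these bulk libraries fewer cells with a transcript and less of it per cell cannot be told apart.

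**Figure D2:**
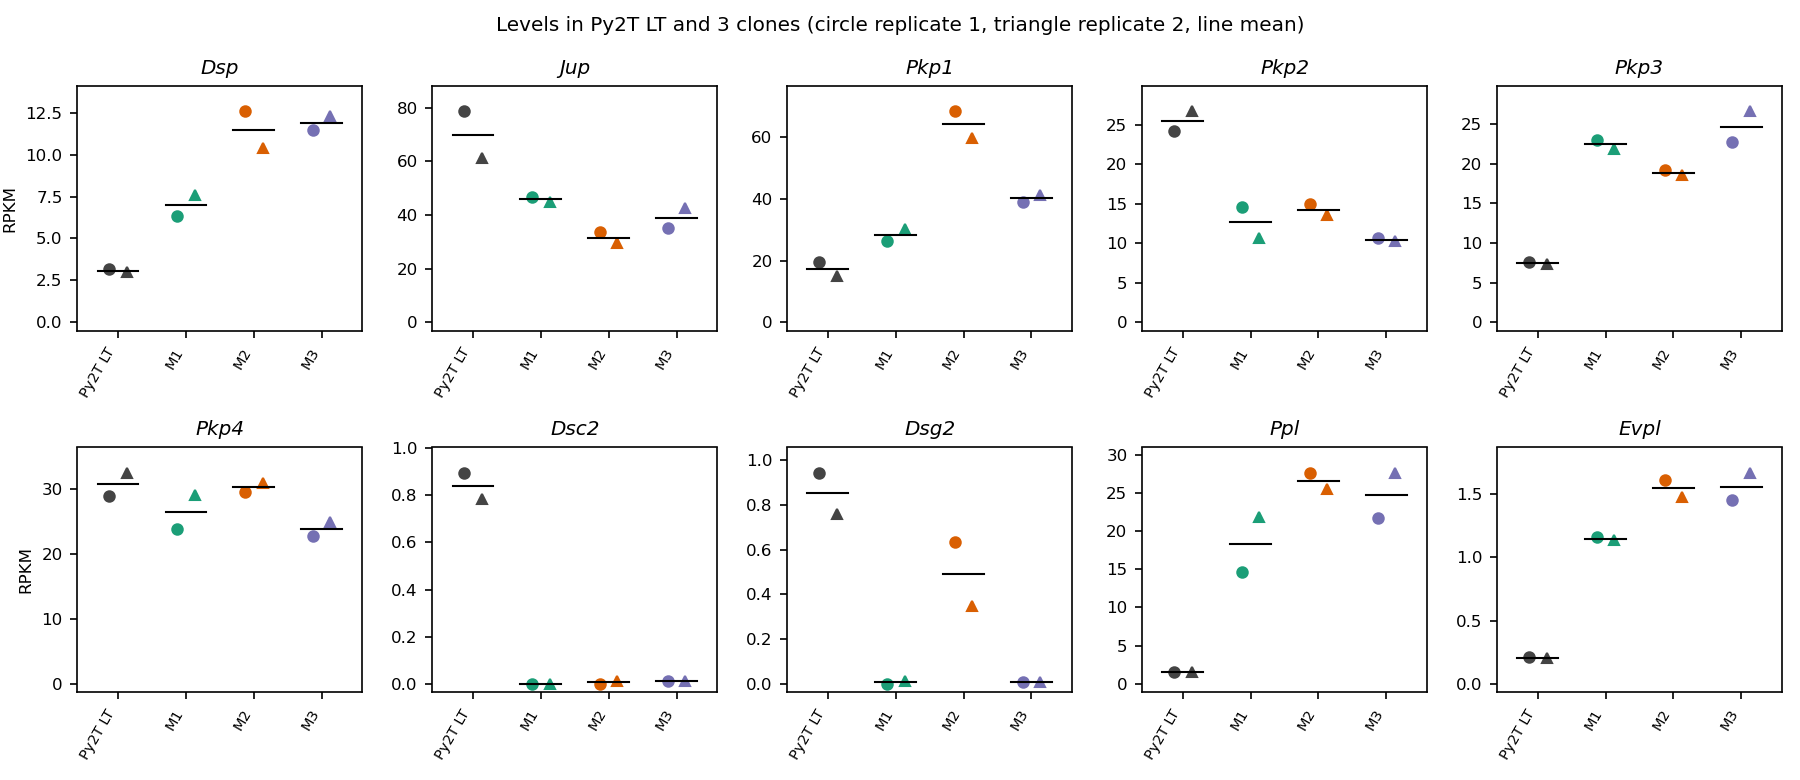
Each panel shows 1 member, with RPKM on the y axis from 0 and the 4 groups on the x axis; circles are replicate 1, triangles replicate 2 and lines the means. Dsp, Pkp3, Ppl and Evpl rise from Py2T LT to every clone, Jup and Pkp2 fall, and Dsg2 is above 0.3 RPKM only in Py2T LT and M2.

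Among the clones, 2 of the 8 tested members differed by limma's test over the 3 groups, Dsp with a widest gap of 0.75 (adjusted p 0.00936) and Pkp1 with 1.19 (adjusted p 0.00187), where 25.6% of all genes differed. In pairs of clones, Dsp, Jup and Pkp1 differed between M2 and M1 (3 of 8, against 23.0% of all genes), with Dsp higher by 0.70, Pkp1 higher by 1.19 and Jup lower at -0.51 in M2. Dsp was the single member that differed between M3 and M1, by 0.75 (4.84% of all genes). Pkp1 at -0.66 and Pkp3 at 0.38 differed between M3 and M2 (20.2% of all genes). Ppl levels in the 3 clones did not pass a test of their difference (adjusted p 0.0969).

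In M3 cells, knockdown of Tet2 or of Mbd3 went with higher Dsp, Pkp4 and Dsg2, and knockdown of Mbd3 with lower Ppl. Knockdown of Tet2 gave 4 rises and 0 falls among the 9 tested members, where 10.5% of all 12808 tested genes rose and 12.7% fell. Knockdown of Mbd3 gave 5 rises and 1 fall, against 15.6% and 16.6% of all genes. Both comparisons used the same shControl libraries. The median log2 difference over the 9 tested members was 0.63 for shTet2 and 1.34 for shMbd3, beside 0.02 and 0.01 over all tested genes. These medians of the members were 0.53 and 0.48 without shControl replicate 1. Without the shControl library that stands apart, the counts were 4 and 0 for shTet2 and 4 and 2 for shMbd3, with 32.7% and 34.2% of all genes called in either direction. Dsc2 missed the minimum of 0.5 CPM in 2 libraries and was not tested, and Dsg2 passed it only through the groups where it is high. Without Dsg2, 3 of 8 members rose with shTet2 and 4 with shMbd3, and the medians were 0.59 and 0.89.

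Dsp had 59.2 and 77.0 CPM in the untreated control cells, 211 and 213 CPM with the Tet2 shRNA and 227 and 247 CPM with the Mbd3 shRNA. Neither shControl library came near a knockdown library, and the mean was 3.12 times that of shControl with shTet2 and 3.48 times with shMbd3. The log2 differences were 1.68 (SE 0.110, adjusted p 1.50e-05) and 1.75 (adjusted p 1.25e-05), and no left-out library ended either call. Without shControl replicate 1 they were 1.55 and 1.62.

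Dsg2, the only desmosomal cadherin of the members with more than a trace in the shRNA set, was at 0.412 and 0.192 CPM in shControl, which are 9 and 4 reads. With shTet2 it reached 1.70 and 1.74 CPM (36 and 35 reads), with shMbd3 7.60 and 7.09 CPM (182 and 159 reads). The groups did not overlap, and the means were 5.70 and 24.3 times that of shControl. On the scale of CPM + 0.5, which compresses values near 0, the differences were 1.52 (SE 0.228, adjusted p 0.00166) and 3.26 (adjusted p 2.39e-05). Both shControl libraries were under the minimum, and with all genes tested without it the adjusted p were 0.00263 and 4.75e-05. On the recovered reads edgeR gave 2.51 for shTet2. Dsc2 stayed at 0 to 0.142 CPM in these 6 libraries, at most 3 reads in any of them, which is the limit that a count of 0 allows.

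Ppl separated the knockdowns, with 68.2 and 95.8 CPM in the control pair, 94.9 and 108 CPM with shTet2 and 33.1 and 41.1 CPM with shMbd3. The shMbd3 libraries were below all others, at a log2 difference of -1.18 (SE 0.152, adjusted p 0.000646), and the difference with shTet2 did not pass. Evpl did not follow Ppl, with 0.503 and 3.93 CPM in the control pair, 3.87 and 3.54 CPM with shTet2 and 3.97 and 6.16 CPM with shMbd3, and neither difference passed. Without shControl replicate 1 the Evpl difference with shTet2 was 0.00453.

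Among the armadillo proteins, Pkp4 was at 103 and 116 CPM in the control pair, 162 and 154 with shTet2 and 155 and 147 with shMbd3. It rose by 0.56 (adjusted p 0.00511) and 0.41 (adjusted p 0.0193); the second call was lost without either shMbd3 library and fell to 0.22 once each library's GC trend was removed. Pkp3 was at 9.43 and 38.7 CPM in the control pair, 49.4 and 68.0 with shTet2 and 48.2 and 65.8 with shMbd3. Its rises of 1.60 (adjusted p 0.0458) and 1.47 (adjusted p 0.0492) were lost when any of 11 of the 12 libraries was left out, and without shControl replicate 1 they were 0.67 and 0.54. Jup was at 21.7 and 98.1 CPM in the control pair, 62.0 and 79.9 with shTet2 and 119 and 156 with shMbd3. Its difference of 1.49 with shMbd3 (adjusted p 0.0491) was likewise lost without any of 11 of 12 libraries and was 0.48 without shControl replicate 1, where the value for shTet2 turned to -0.39. Leaving out shControl replicate 2, which keeps the library with low Jup and Pkp3, kept these 3 calls, with Pkp3 at 2.53 and 2.40 and Jup at 2.51 with shMbd3.

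Pkp1 was at 105 and 152 CPM in the control pair, 122 and 133 with shTet2 and 98.5 and 97.5 with shMbd3. Its difference of -0.42 with shMbd3 missed the threshold (adjusted p 0.0662) and was -0.63 without shControl replicate 1 (adjusted p 0.00294). Pkp2 was at 54.9 and 36.4 CPM in the control pair, 64.6 and 51.6 with shTet2 and 70.5 and 56.8 with shMbd3. Its groups overlapped, and neither difference passed in the main fit, at 0.40 with shTet2 and 0.44 with shMbd3. With a term for replicate number added to the limma fit both passed (adjusted p 0.0408 and 0.0235). Without shControl replicate 1 the rises were 0.75 and 0.79. Pkp2 was higher in replicate 1 than in replicate 2 in all 6 groups, with gaps of 0.24 to 0.34 on the log2 scale in the 5 others.

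**Figure D3:**
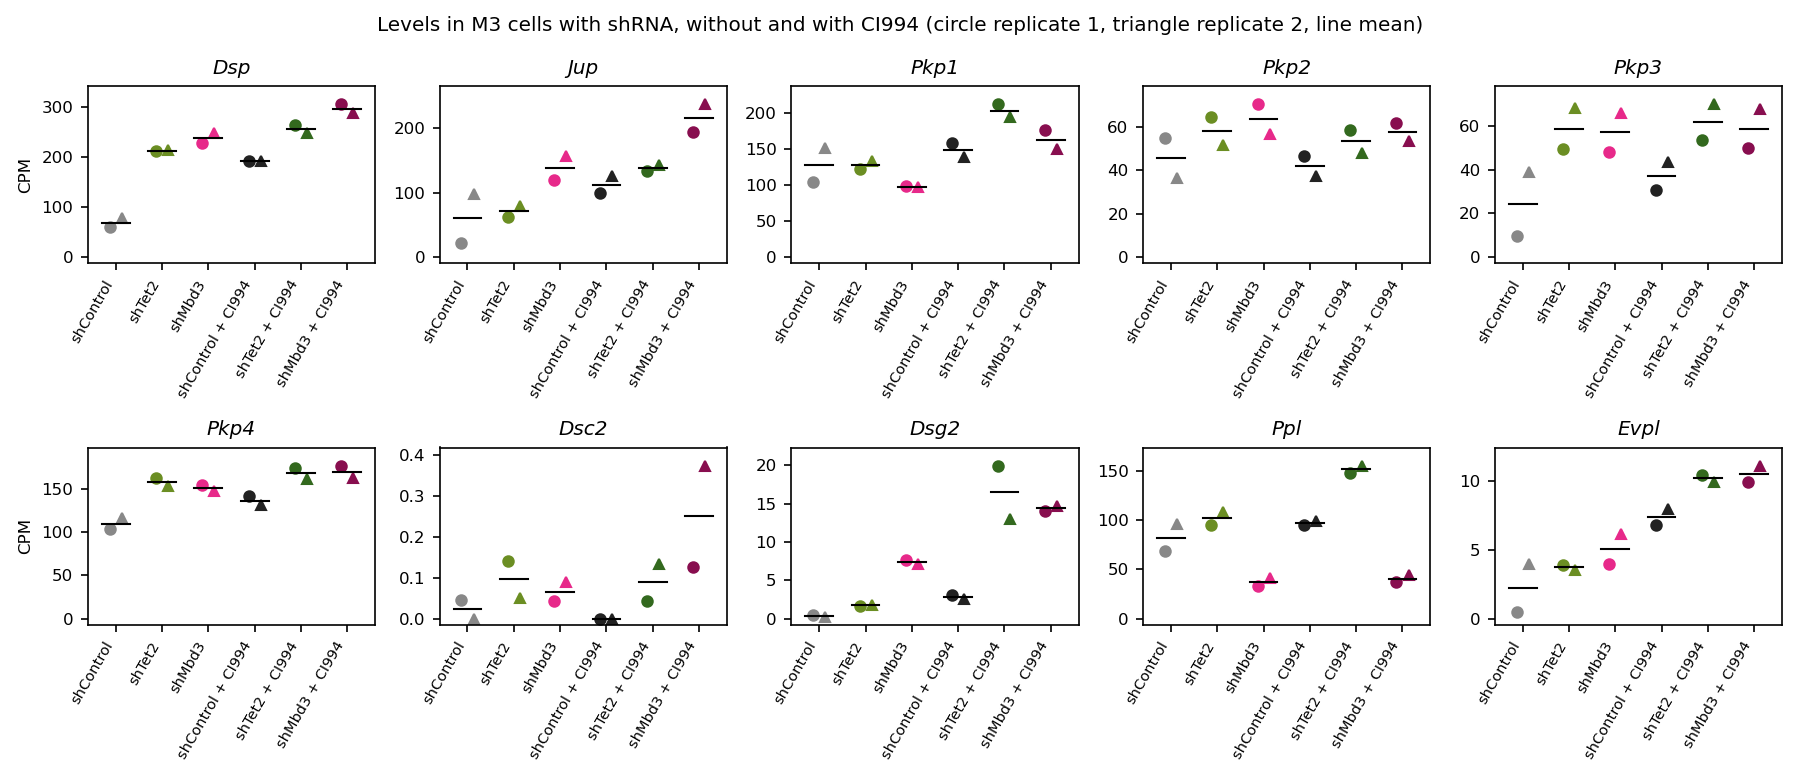
Each panel shows 1 member, with CPM on the y axis from 0 and the 6 groups of M3 cells on the x axis; circles are replicate 1, triangles replicate 2 and lines the means. Dsp is low only in untreated shControl, Ppl is low in both shMbd3 groups, Dsg2 rises from 0.302 CPM in untreated shControl to 16.5 CPM in shTet2 with CI994, and Jup, Pkp3 and Evpl have widely split untreated shControl libraries.

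Set against each other, shTet2 and shMbd3 differed in 2 members, Ppl, higher with shTet2 by 1.53 (SE 0.152, adjusted p 0.000239), and Dsg2, lower at -1.75 (adjusted p 0.000978). Over all genes 9.49% were higher and 9.60% lower. Dsp did not differ past the threshold, at -0.07 (SE 0.110, adjusted p 0.723). Without shControl replicate 1, which enters this comparison only through the shared spread, 2 members were higher and 2 lower, with Jup at -0.86 (adjusted p 0.000948) and Pkp1 at 0.47 (adjusted p 0.00321) added and 44.9% of all genes called.

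CI994 went with higher Dsg2 in all 3 backgrounds, with higher Dsp in shControl cells and with higher Pkp1 in the knockdown cells. In the main fit no member was called lower with CI994 in any background, though an alternative fit called a fall in shTet2. Pkp2 was at -0.13 in shControl, -0.19 in shTet2 and -0.15 in shMbd3, none of which passed. In shControl cells 3 members rose and 0 fell, against 18% and 15.5% of all genes (2 rises without Dsg2), in shTet2 cells 3 and 0, against 12.4% and 11.8%, and in shMbd3 cells 2 and 0, against 7.45% and 5.14%. The medians over the 9 tested members were 0.88, 0.50 and 0.31, beside 0.03, 0.00264 and -0.00257 over all genes. Leaving out shControl replicate 1 gave medians of the members of 0.22, 0.50 and 0.31. Without shControl replicate 1 the rises numbered 3, 6 and 5, where 29.6%, 57.5% and 41.9% of all genes were called in either direction.

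Under CI994, Dsg2 reached 3.04 and 2.57 CPM in control cells, 19.9 and 13.1 CPM in Tet2 knockdown cells and 14.1 and 14.7 CPM in Mbd3 knockdown cells. Each treated library was above both untreated libraries of its background, and the ratio of means was 9.29 in shControl, 9.58 in shTet2 and 1.96 in shMbd3. The log2 differences were 2.03 (adjusted p 0.000644), 2.85 (adjusted p 0.000173) and 0.91 (SE 0.228, adjusted p 0.0321), and on the recovered reads edgeR gave 3.15 in shControl. The call in shMbd3 was lost when any of 7 of the 12 libraries was left out and with a pseudocount of 0.1, and without either shMbd3 library the difference was 0.85 or 0.97. With CI994 Dsc2 was at 0 in both shControl libraries, 0.0423 and 0.134 CPM in shTet2 and 0.126 and 0.373 CPM in shMbd3, the last of which is 6 reads.

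Under CI994, Dsp reached 192 CPM in both control libraries, 264 and 248 CPM in Tet2 knockdown cells and 305 and 287 CPM in Mbd3 knockdown cells. In shControl it rose by 1.47 (SE 0.110, adjusted p 0.000105), to 2.82 times the untreated mean. In the knockdown cells the differences of 0.19 and 0.31 did not pass (adjusted p 0.217 and 0.104), though the treated libraries lay above the untreated ones, and both passed without shControl replicate 1 (adjusted p 0.0296 and 0.00459).

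Treated Evpl levels were 6.81 and 7.95 CPM in control cells, 10.4 and 9.93 CPM in shTet2 cells and 9.88 and 11.1 CPM in shMbd3 cells, above both untreated libraries in each background. Its rise of 1.89 in shControl passed (SE 0.520, adjusted p 0.0251), was 0.85 without shControl replicate 1 and lost its call without either treated shControl library. The differences of 1.28 in shTet2 and 1.00 in shMbd3 did not pass, and did without shControl replicate 1 (adjusted p 0.000166 and 0.00142). Treated Ppl levels were 94.6 and 99.3 CPM in control cells, 148 and 155 CPM in shTet2 cells and 37.0 and 44.1 CPM in shMbd3 cells. It rose in shTet2 by 0.50 (adjusted p 0.0418), a call that ended without any of 10 of the 12 libraries and fell to 0.25 with the GC trend removed, and the differences in the other backgrounds did not pass.

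Treated Pkp1 levels were 158 and 139 CPM in control cells, 213 and 194 CPM in shTet2 cells and 177 and 150 CPM in shMbd3 cells. It rose by 0.59 in shTet2 (SE 0.156, adjusted p 0.0248) and 0.72 in shMbd3 (adjusted p 0.0183), and its libraries overlapped in shControl. The call in shTet2 was lost without any 1 of the 4 shTet2 libraries and the value was 0.38 with the GC trend removed; the call in shMbd3 was lost without either untreated shMbd3 library or the treated replicate 1. Treated Jup levels were 99.5 and 126 CPM in control cells, 134 and 142 CPM in shTet2 cells and 194 and 237 CPM in shMbd3 cells, above the untreated libraries in each background. None of its differences passed, and without shControl replicate 1 those of 0.89 in shTet2 and 0.64 in shMbd3 did (adjusted p 0.000581 and 0.00686). Pkp2, Pkp3 and Pkp4 had no difference with CI994 past the threshold in any background in the main fit. In the 6 treated libraries Pkp2 was at 37.3 to 61.9 CPM, Pkp3 at 30.7 to 69.8 CPM and Pkp4 at 131 to 177 CPM. With a term for replicate number added to the limma fit, Pkp4 and Jup passed in shControl (adjusted p 0.0268 and 0.0420).

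**Figure D4:**
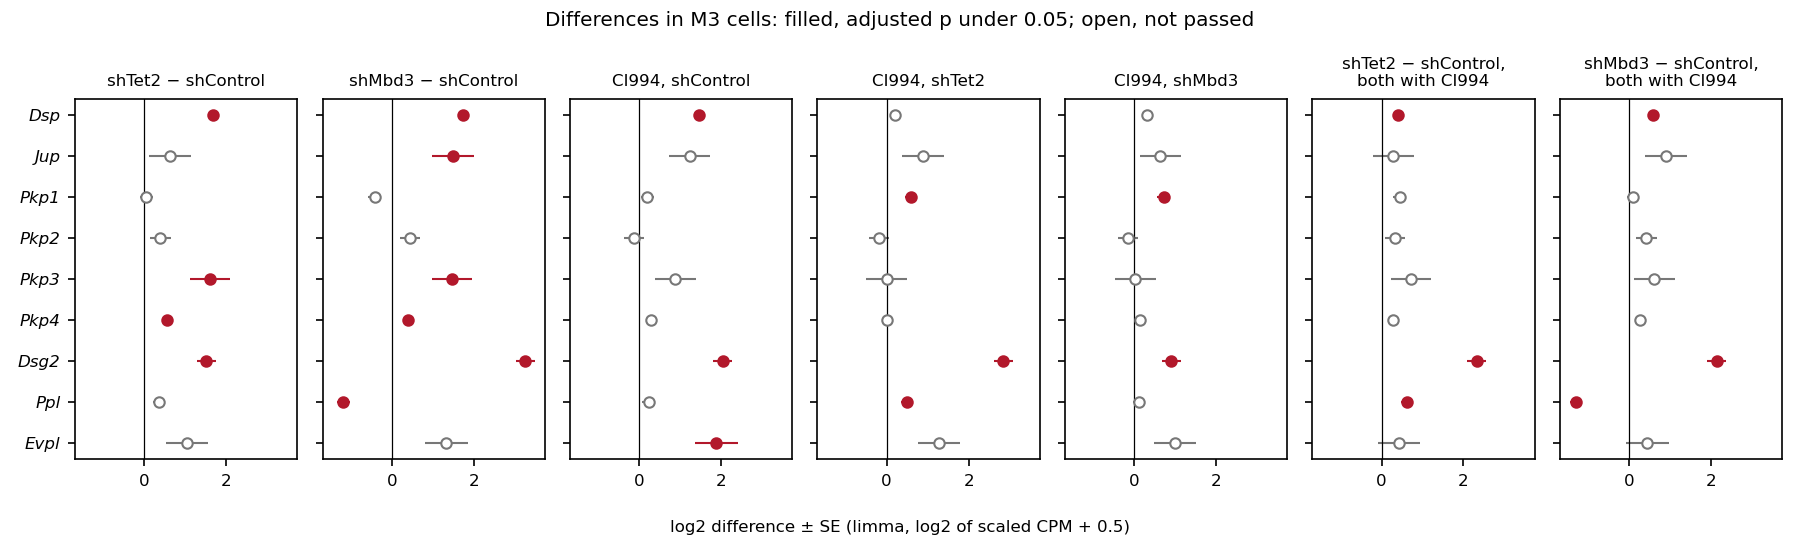
Each panel is 1 comparison in M3 cells, with log2 differences of scaled CPM + 0.5 on the x axis and the 9 tested members as rows; bars are standard errors, and filled points have an adjusted p under 0.05. Dsg2 is filled in all 7 panels, Ppl is filled on the lower side in both shMbd3 panels at -1.18 and -1.29, and the bars of Jup, Pkp3 and Evpl are the widest.

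With CI994 present in both arms, shTet2 cells were higher than shControl cells in 3 members and lower in 0, against 6.55% and 9.24% of all genes, and shMbd3 cells were higher in 2 and lower in 1, against 7.99% and 10.9%. Both used the same treated shControl libraries. Dsg2 was higher by 2.33 (adjusted p 0.000175) with shTet2 and by 2.14 (adjusted p 0.000248) with shMbd3. Dsp was higher by 0.40 (adjusted p 0.0377) and 0.58 (adjusted p 0.00565); the first call was lost without any of 10 of the 12 libraries and the second without the treated shMbd3 replicate 1. Ppl was higher by 0.63 with shTet2 (adjusted p 0.0229), a call lost without any 1 of the 4 libraries compared, and lower at -1.29 with shMbd3 (adjusted p 0.000443). The counts without shControl replicate 1 were 6 and 0 for shTet2 and 5 and 1 for shMbd3, with 40.5% and 43.8% of all genes called.

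Between the treated knockdowns, Ppl was again higher in shTet2, by 1.92 (SE 0.152, adjusted p 7.00e-05), at a ratio of means of 3.73, and was the single member called, where 11.0% of all genes were higher and 10.8% lower. Dsg2, which had differed without CI994, was at 0.19 (SE 0.228, adjusted p 0.626) with it. With shControl replicate 1 left out, 2 members were higher and 2 lower with 46.7% of all genes called, adding Pkp1 at 0.34, Jup at -0.61 and Dsp at -0.18.

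The interaction, which is the knockdown difference with CI994 minus that without it, passed for Dsp alone among the members. It was -1.28 (SE 0.156, adjusted p 0.0162) with shTet2, where 0.414% of all genes had a positive and 0.273% a negative interaction, and -1.16 (adjusted p 0.0498) with shMbd3, where the shares were 0.0390% and 0.0390%. Both were still called without shControl replicate 1, at -1.15 and -1.03, with 6.06% and 0.695% of all genes called. The call with shTet2 was lost without any of 6 of the 12 libraries and that with shMbd3 without any of 10. Dsg2 gave 0.81 with shTet2 and -1.12 with shMbd3 (SE 0.322), and neither passed (adjusted p 0.367 and 0.242). The order of Dsp levels ran from untreated shControl (mean 68.1 CPM) over shControl with CI994 (192), shTet2 (212), shMbd3 (237) and shTet2 with CI994 (256) to shMbd3 with CI994 (296), and apart from the first step the gaps between neighbours were small beside it.

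**Figure D5:**
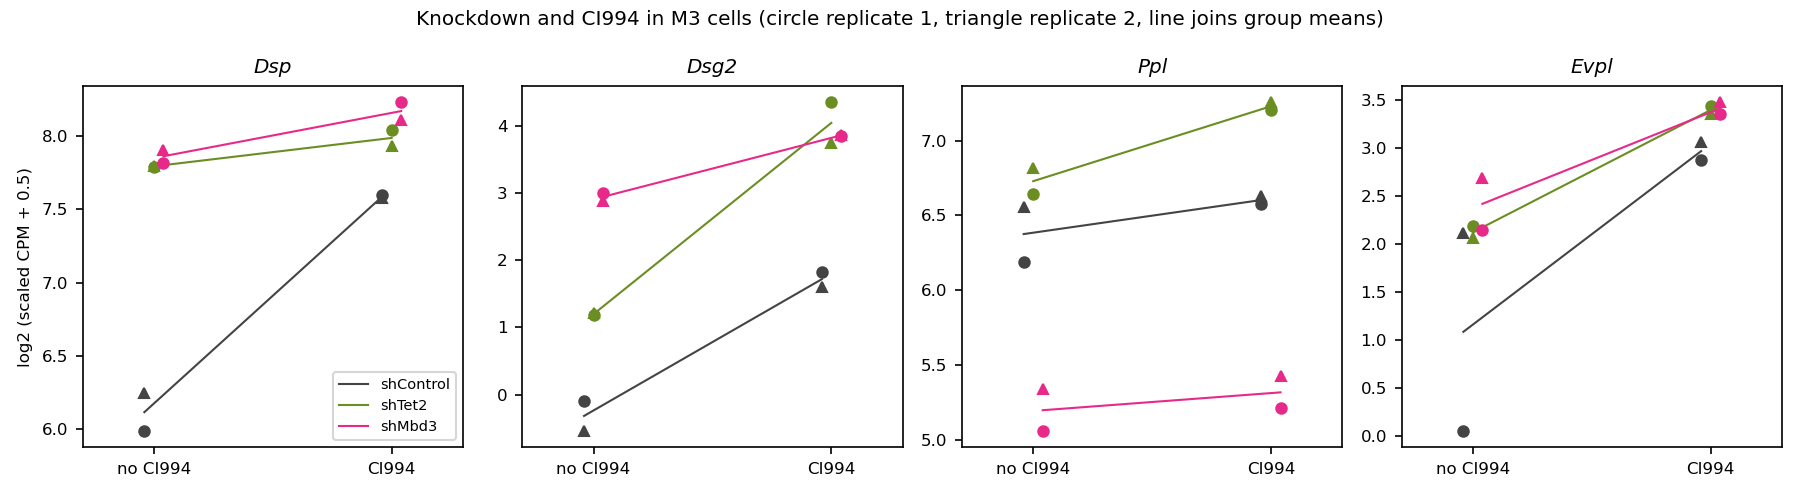
The y axis is log2 of scaled CPM + 0.5 for Dsp, Dsg2, Ppl and Evpl, and the x axis M3 cells without and with CI994; lines join group means of shControl, shTet2 and shMbd3, circles are replicate 1 and triangles replicate 2. The Dsp lines of the knockdowns are flatter than that of shControl, with differences of 0.19 and 0.31 against 1.47, and the Ppl line of shMbd3 stays lowest.

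Other genes of the junction came from fixed lists. The desmosomal cadherins Dsc1, Dsg1a, Dsg1b, Dsg1c, Dsg3 and Dsg4 had group means of at most 0.0150 RPKM and 0.281 CPM, and no gene of this kind beyond Dsg2 was tested. Perp, a membrane protein of desmosomes, was at 36.0 RPKM in Py2T LT and 130 to 153 RPKM in the clones, with log2 differences of 1.79 to 2.05. Of 12 other desmosome and cornified envelope genes, 3 were tested in the shRNA set, Perp, Kazn and Cdsn. With shTet2 2 rose and 0 fell, against 10.5% and 12.7% of all genes, and with shMbd3 1 and 0, against 15.6% and 16.6%. With CI994 in both arms 1 rose and 1 fell with shMbd3, against 7.99% and 10.9%. Those were Kazn and Cdsn, each under the minimum in a compared group. Perp rose with shTet2 by 0.73 (adjusted p 0.00258) and not with shMbd3 (0.17, adjusted p 0.289). Kazn, which encodes the periplakin partner kazrin, was at 0.209 CPM in untreated shControl, 2.53 in shTet2 and 5.96 in shMbd3. It was under the minimum in all 4 shControl libraries and was tested only through the groups where it is high, with log2 differences of 2.12 and 3.14 (adjusted p 0.000296 and 3.65e-05).

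Of 7 tested keratins, which desmoplakin anchors, 2 rose with shTet2, 3 with shMbd3 and 4 with CI994 in shControl, and none fell, against 10.5%, 15.6% and 18% of all genes rising. Krt17 and Krt20 were under the minimum in shControl, and without them the rises were 2, 2 and 4 of 5. The other 5 were low in shControl replicate 1, as for Krt8 at 324 CPM against 1022 in replicate 2 and Krt7 at 390 against 1032. Without that library 3 rose with shTet2, 3 rose and 1 fell with shMbd3, and 4 rose with CI994. Krt14, a keratin of basal cells, was at 2.40 CPM in untreated shControl, 4.64 in shTet2 and 19.9 in shMbd3, and at 28.8, 62.0 and 93.1 CPM with CI994. The 5 basal mammary markers summed to 3.25 to 5.99 CPM in untreated shControl and to 78.3 to 108 CPM in shMbd3 with CI994, of which Krt14 made up nearly all. Only Krt14 and Acta2 of them were tested. Krt14 was called higher with shMbd3 and with CI994 in each background, and not with shTet2. Acta2, tested only through shControl libraries, was called lower with each knockdown without CI994 and with CI994 in shControl and in shMbd3. The 6 luminal markers summed to 999 to 2504 CPM in untreated shControl and to 2268 to 3961 CPM in the other groups. The 8 mesenchymal markers summed to 6865 to 9095 CPM in untreated shControl, 4987 to 5239 in shTet2 and 5160 to 5316 in shMbd3. Their sums with CI994 were 11630 to 11700 CPM in shControl, 9709 to 10950 in shTet2 and 6335 to 6727 in shMbd3. With CI994, 3 of these 8 were called higher and 0 lower in shControl, against 18% and 15.5% of all genes. In shTet2 5 were higher and 1 lower, against 12.4% and 11.8%, and in shMbd3 2 and 0, against 7.45% and 5.14%. Without Col1a1, under the minimum in a compared group, the counts of 7 were 2 and 0 in shControl and 4 and 1 in shTet2. The part of the basal, luminal and mesenchymal lists in the members' differences was not tested. The 5 blood cell markers summed to 1.60 to 2.35 CPM in untreated shControl and to 10.2 to 20.6 CPM in the CI994 groups, through Cd68 and Lyz2, while Ptprc and Cd3e were at or near 0; this was not tested against the members either.

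Of 4 tested other plakins, 0 rose and 0 fell with shTet2, and 0 rose and 1 fell with shMbd3. Of 5 tested armadillo relatives, 0 rose and 0 fell with shTet2, and 1 rose and 0 fell with shMbd3. Of 8 tested adherens junction genes, 4 rose and 0 fell with shTet2, against 10.5% and 12.7% of all genes. With shMbd3 5 rose and 1 fell, against 15.6% and 16.6%. The list medians were 0.38 and 0.67, and 0.42 and 0.65 without shControl replicate 1. Nectin4, 1 of the rises in each knockdown, was under the minimum in shControl. Without Nectin4, 3 of 7 rose and 0 fell with shTet2 and 4 rose and 1 fell with shMbd3, with medians of 0.13 and 0.58. Cdh1 went from 21.0 CPM in untreated shControl to 205 in shTet2 and 186 in shMbd3, and to 35.6 CPM in shControl with CI994. Among transcription factors known to act on epithelial genes, Zeb1, a repressor, fell by 1.57 with shTet2 and by 1.48 with shMbd3 and was at -0.09 with CI994 in shControl (adjusted p 0.579). Grhl2, an activator of junction genes, was at 18.1 CPM in untreated shControl, 52.8 in shTet2, 54.5 in shMbd3 and 20.6 in shControl with CI994, where it did not pass. Of the 12 tested factors of this kind, 5 were higher and 1 lower with shTet2, and 2 were higher and 3 lower with shMbd3. With CI994 in shControl 2 were higher and 3 lower. Of all genes, 10.5%, 15.6% and 18% were higher and 12.7%, 16.6% and 15.5% lower, in the same order. Ovol1, Ovol2 and Grhl1 were under the minimum in untreated shControl. Without them the counts of 9 factors higher and lower were 4 and 1, 1 and 3, and 2 and 3.

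For the 4 tested members with the widest range of group means in the shRNA set, the 3 genes with the most similar pattern over the 12 libraries are given as a description. Dsg2 was most like Stom (Pearson r 0.964), Gpr160 (0.960) and Rem2 (0.956), and Stom went from 30.7 and 39.8 CPM in untreated shControl to 136 and 152 CPM in shMbd3 with CI994. Dsp was most like Ehd4 (0.980), Tec (0.976) and Grb7 (0.975). Jup was most like Tmem132a (0.996), Gdpd5 (0.995) and Git1 (0.995), and Evpl most like Alad (0.991), Klhdc4 (0.990) and Ints5 (0.990). The genes named for Jup and Evpl share with them the low value in shControl replicate 1, where Tmem132a was at 7.96 CPM against 62.8 in replicate 2 and Alad at 18.3 against 48.6.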

How the data were processed

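Total RNA of 20 libraries was prepared with a stranded total RNA kit, per the labels' protocols. The submitters' processing notes name STAR and the build mm10, without versions, and how reads were counted, with or without strand, is not given in the sources used here. The authors deposited RPKM for the 8 Py2T LT and clone libraries, read off from the values, which do not tell RPKM from FPKM. The authors deposited CPM for the 12 shRNA libraries, and every value was a whole multiple of 1 read within 0.01 reads (100%), so reads were recovered; a count of 0 allows up to 3 reads, 0.120 to 0.186 CPM, for counting error only. In 1 RPKM file 7 further columns repeated other files.

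Gene numbers had a symbol for 19262 of 19311 and 24374 of 24454 entries, and gene positions are those of GRCm38. The design planned a test for counts, and as the files held RPKM and CPM, limma 3.58.1 (R 4.3.3; trend and robust settings) was fitted with group as the only term to log2(value / TMM size factor + 0.5), once per set. Genes of at least 1 RPKM or 0.5 CPM in 2 libraries were tested, 11717 and 12808 genes, and p was adjusted over all of them by Benjamini-Hochberg with a threshold of 0.05. Differences are on this log2 scale, which understates changes of low genes. Replicate numbers were not taken as pairs in the main fit, since no label says that a number marks a shared day or batch. Replicate 1 deviations of all pairs of CPM groups correlated positively, at 0.0954 to 0.524. A fit with a term for replicate number, the replicate block, was therefore an alternative. EdgeR 4.0.16 and DESeq2 1.42.0 on the recovered reads were alternatives. Counts without genes under the minimum in a compared group, and list counts without shControl replicate 1, were chosen after seeing the data.

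The members, gene lists, comparisons and rules were chosen with earlier results of these data known. Named were the 10 members, Tet2 and Mbd3, and for the 4 tested members of widest range the 3 genes of most similar pattern. Genes were also named from lists of other desmosome and cornified envelope genes, keratins, adherens junction genes and regulators of epithelial genes. The same holds for mesenchymal, luminal, basal, blood cell and endothelial markers. The lists of other plakins and armadillo relatives were counted without naming their genes.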

Additional observations from a re-analysis of the deposited data

Results flagged for a closer look

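Dsp, which encodes the link from desmosomes to keratin, differed between backgrounds in its response to CI994. The interaction with shTet2 was -1.277 on the log2 scale (SE 0.156, adjusted p 0.0162 by limma) and that with shMbd3 -1.163 (adjusted p 0.0498), so the knockdown difference was smaller with CI994 than without it in both. Both interactions share the 4 shControl libraries, in which Dsp was at 59.2 and 77.0 CPM without and 192 CPM in both with CI994. The shMbd3 value missed the threshold with library size scaling, with a pseudocount of 0.1 and by edgeR on the recovered reads.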

How the results depend on the processing

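Of the 53 member differences past the threshold, recomputed 1104 times, 976 values stayed past it, 128 did not and 0 reversed; of 58 others, 30 changed sign in at least 1 alternative. The counts of members past the threshold moved as follows, and the cause was not tested. Removing each library's GC trend gave 4 among the clones, and 4 and 3 for shTet2 against shMbd3 without and with CI994. In the same order, the GC trend removed with the replicate block gave 4 among the clones, 6 and 4. For CI994 in shTet2 and shMbd3 it gave 5 and 4, for shTet2 and shMbd3 against shControl with CI994 7 and 7, and for the interactions 3 and 3. The replicate block alone gave 6 and 7 for shTet2 and shMbd3 against shControl, adding Pkp2 in both (adjusted p 0.0408 and 0.0235) and Ppl with shTet2 (0.0327), gave 5 for CI994 in shControl, adding Jup (0.0420) and Pkp4 (0.0268), and 5 for shMbd3 against shControl with CI994, and lost 0 calls; replicate 1 deviations of CPM groups correlated at 0.0954 to 0.524 and those of RPKM groups at -0.122 to 0.128. With only the groups compared, shTet2 and shMbd3 against shControl gave 1 and 2 and with CI994 7 and 8, shTet2 against shMbd3 4 and 3, CI994 in shControl, shTet2 and shMbd3 0, 6 and 5, and the interactions 0 and 0. The interaction with shMbd3 gave 0 with library size only, 0 with a pseudocount of 0.1, 0 by edgeR and 2 by DESeq2. A pseudocount of 0.1 gave 1 for CI994 in shMbd3, and DESeq2 5 for shTet2 against shControl with CI994. Without shControl replicate 1 and with the GC trend removed, an alternative chosen after seeing the data, the counts were 5 and 4 for shTet2 against shMbd3 without and with CI994, 6 and 5 for CI994 in shTet2 and shMbd3, 6 and 6 for the knockdowns against shControl with CI994 and 3 for the shMbd3 interaction.

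Leaving out each library in turn gave 2 to 6 among the clones, 3 to 7 for shTet2 against shControl, 3 to 7 for shMbd3 against shControl, 2 to 4 for shTet2 against shMbd3, 2 to 9 for CI994 in shControl, 1 to 6 in shTet2 and 0 to 5 in shMbd3. With CI994 it gave 1 to 6 for shTet2 against shControl, 2 to 6 for shMbd3 against shControl and 1 to 4 between the knockdowns, and each interaction 0 to 5. A group left with 1 library is assumed to vary like the others. The highest counts came without 1 of the untreated shControl libraries, apart from the clones. For the RPKM libraries the depth is unknown. Dsc2 missed the minimum in both sets, so none of its differences was tested.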
